A study of Zea mays with 2 samples.

Results

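KN1 gene-body summits are places inside annotated maize genes, away from both gene ends, where chromatin recovered with tagged KN1 was most enriched over input. They were taken from the deposited peak table by position alone: a chromosomal peak listed with 1 gene of at most 10 kb, with its summit inside that gene, more than 300 bp after the gene start and more than 500 bp before the gene end. The rule found 2530 summits in 2129 genes, out of 21437 peaks in the table. Chromosomes 1 to 10 carried 21168 of these, and 20647 were listed with a single nuclear gene. No fold, p-value or q-value entered the choice beyond the authors' peak call, which also gave the summit positions.

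The data come from chromatin immunoprecipitation followed by sequencing (ChIP-seq) on leaf protoplasts, which are leaf cells without walls, of the maize inbred B73. Seedlings had been raised in light and then etiolated in the dark. The protoplasts were transfected with a plasmid, p1107-KN1, that overexpresses KN1 with a biotin ligase recognition peptide (BLRP). The groups are 1 ChIP library and 1 input library, both labelled as KN1 protoplasts under the same protocol, so the transfection is shared by both. The level of KN1 in these cells was set by the plasmid. A ChIP library from cells without tagged KN1 was not analysed here. With 1 library a group there is no replicate error, and no test between conditions was made. The intervals given below are exact 95% intervals that cover counting only.

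KN1 (KNOTTED1) is the founding KNOX homeodomain transcription factor of plants. It keeps cells of the shoot meristem in an undetermined state and is normally silent in developing leaves. KNOX proteins bind DNA together with BELL partners, and they act largely by adjusting hormone pathways, raising cytokinin and lowering gibberellin. Binding inside a gene is part of that picture: in maize, KN1 is known to bind an intron of ga2ox1, which encodes an enzyme that inactivates gibberellin. The deposited table gives gene limits but no exons, so the summits below cannot be divided into intronic and exonic ones. None of the 2129 gene identifiers matched the gene table used for names (0 matches), so genes are given by identifier, and no role is assigned to any of them.

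Gene-body summits made up 12.3% of the single-gene peaks on the chromosomes (95% interval 11.8 to 12.7%). Their median fold was close to that of summits at the start of genes and below that of summits just upstream. Fold here is the value the authors deposited for each summit, ChIP signal divided by input. Among gene-body summits it ran from 2.46 to 86.2, with a median of 8.06 (interval 7.71 to 8.41) and quartiles of 5.26 and 14.4. The 2375 summits in the first 300 bp of genes of the same length limit had a median of 7.71 (7.36 to 8.06), and the 4315 summits within 500 bp upstream had 9.82 (9.47 to 10.2). The 1153 summits in the last 500 bp of genes had a median of 7.36 (7.01 to 7.71). Farther out the medians were higher: 11.2 (10.9 to 11.6) for the 4493 summits beyond 500 bp upstream and 10.5 (10.2 to 10.9) for the 4312 downstream. Over all chromosomal peaks the median was 9.47.

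At most peaks the input term stood at its genome-wide floor of 1.85, so fold moves in steps of 0.351 for each read of ChIP pileup. The medians at the gene body and at the first 300 bp are 1 such step apart, at 22 and 21 overlapping reads. Their intervals overlap, whereas those of the gene body and of the 500 bp upstream do not.

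**Figure D1:**
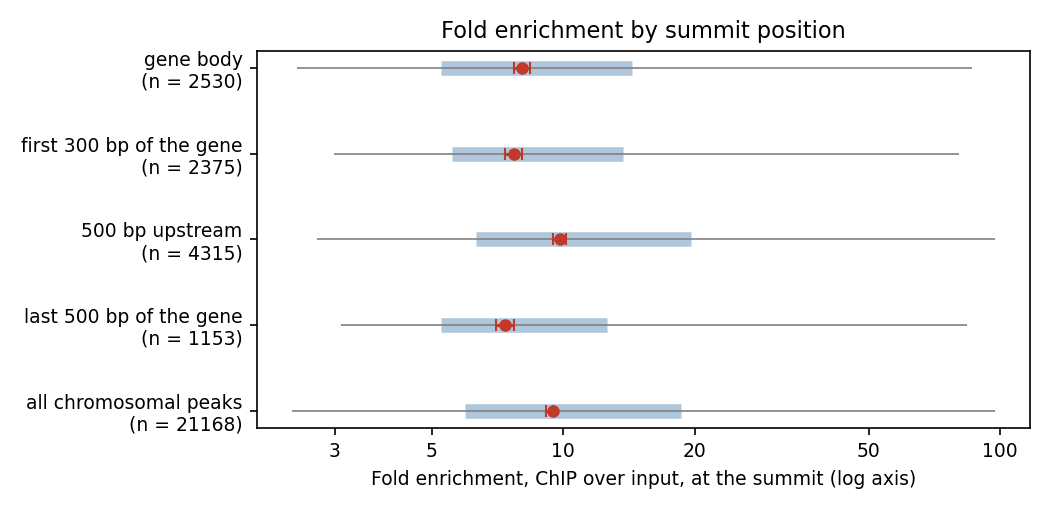
Fold enrichment at the summit (log axis) for 4 positions in or beside genes of at most 10 kb, and for all chromosomal peaks. Red points are medians with 95% intervals, blue bars the quartiles and grey lines the full range. The gene-body median of 8.06 lies between the 7.71 of the first 300 bp and the 9.82 of the 500 bp upstream.

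A fold of at least 10 was reached by 981 gene-body summits, or 38.8% (36.9 to 40.7%), against 47.3% of all chromosomal peaks. The share was 36.7% (34.7 to 38.7%) in the first 300 bp, 34.4% (31.7 to 37.3%) in the last 500 bp and 49.8% (48.4 to 51.4%) within 500 bp upstream. A q-value under 1e-10 was reached by 1559 gene-body summits (61.6%), against 69.6% of all chromosomal peaks. Taken as whole classes, the body, the first 300 bp and the last 500 bp thus each had a lower share than the 500 bp upstream. The difference was smaller at some distances within the body. At 1300 to 1500 bp after the start the share was 45.5% (37.8 to 53.4%), below the 49.8% upstream but with overlapping intervals. The median fold there was 9.47 (8.41 to 10.9), against 9.82 (9.47 to 10.2) within 500 bp upstream. Of the ranges after the start, only that beyond 8000 bp had a higher share, 50% of 12 summits (21.1 to 78.9%). The gene-body median was below that of the 500 bp upstream in each of 5 gene length classes, but the intervals overlapped in the 2 longest. In genes of 2 to 4 kb the medians were 8.06 (7.71 to 8.41) in the body and 9.82 (9.11 to 10.5) upstream, and in genes of 4 to 6 kb they were 8.41 (7.71 to 9.11) and 10.5 (9.47 to 11.2). In genes of 6 to 8 kb they were 7.71 (7.01 to 8.76) and 9.11 (8.06 to 10.2), and in genes of 8 to 10 kb 8.76 (7.01 to 9.82) and 9.11 (7.36 to 12.6).

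The peaks were narrow and mostly contained in their gene. Their median width was 439.5 bp (interval 428 to 449 bp), with quartiles of 307 and 649 bp, against 389 bp in the first 300 bp of genes and 470 bp within 500 bp upstream. In 2439 of 2530 cases (96.4%) the whole peak lay between the gene limits. The rule keeps summits more than 300 bp from the start and 500 bp from the end, so this share is in part built in. The summit sat near the middle of the peak, at a median of 49.6% of its width from the edge towards the gene start. Fold and width rose together across the 2530 peaks (Spearman rho 0.79), which share their libraries and the calling threshold. Fold and gene length were hardly related (rho 0.05).

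Taken over all gene lengths, KN1 summits in gene bodies lay nearer the gene start than an even spread would put them. This tilt was seen only in genes over 4 kb. Between the margins of the rule, the part of the body towards the start, 1 of 3 equal parts, held 978 summits (38.7%, 36.8 to 40.6%). The middle part held 772 (30.5%) and the part towards the end 780 (30.8%). With the body in 10 equal parts, the share fell from 13% in the first to 7.95% in the seventh and came back to 12.1% in the last.

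The tilt towards the start depended on gene length. In genes of 2 to 4 kb the part nearest the start held 31.8% of 1053 summits (29.0 to 34.7%), close to an even share. In genes of 4 to 6 kb it held 45.04% of 726 (41.4 to 48.7%), in genes of 6 to 8 kb 47.6% of 370 (42.4 to 52.8%), and in genes of 8 to 10 kb 50.3% of 147 (41.98 to 58.7%). In genes under 2 kb it held 28.2% of 234 summits (22.5 to 34.4%), fewer than the other parts.

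Measured in base pairs and between the margins of the rule, the gene-body summits had their highest density at about 1 kb after the gene start. The intervals of all ranges from 300 to 1300 bp overlapped, and the ranges pool genes of all lengths. The first 300 bp, which the rule leaves out, held 2375 summits, against 239 at 300 to 500 bp, and enters no density here. The density was taken over all 10428 listed genes of 800 to 10000 bp, each counted for as far as its body reached, so genes without any listed peak are not in it. Each range of distances below leaves out its lower limit. The density was 0.118 summits per kb at 300 to 500 bp (0.103 to 0.134), 0.142 at 900 to 1100 bp (0.124 to 0.161) and 0.102 or higher up to 1700 bp. It then fell to 0.0607 at 2400 to 3000 bp (0.0524 to 0.07004) and 0.0354 at 6000 to 8000 bp. Counted back from the gene end, it was highest at the margin, with 0.132 at 500 to 700 bp (0.117 to 0.149), and lay between 0.0611 and 0.081 from 1700 to 8200 bp. The last range, to 9700 bp before the end, rests on 25 summits (0.0977 per kb, 0.0632 to 0.144).

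**Figure D2:**
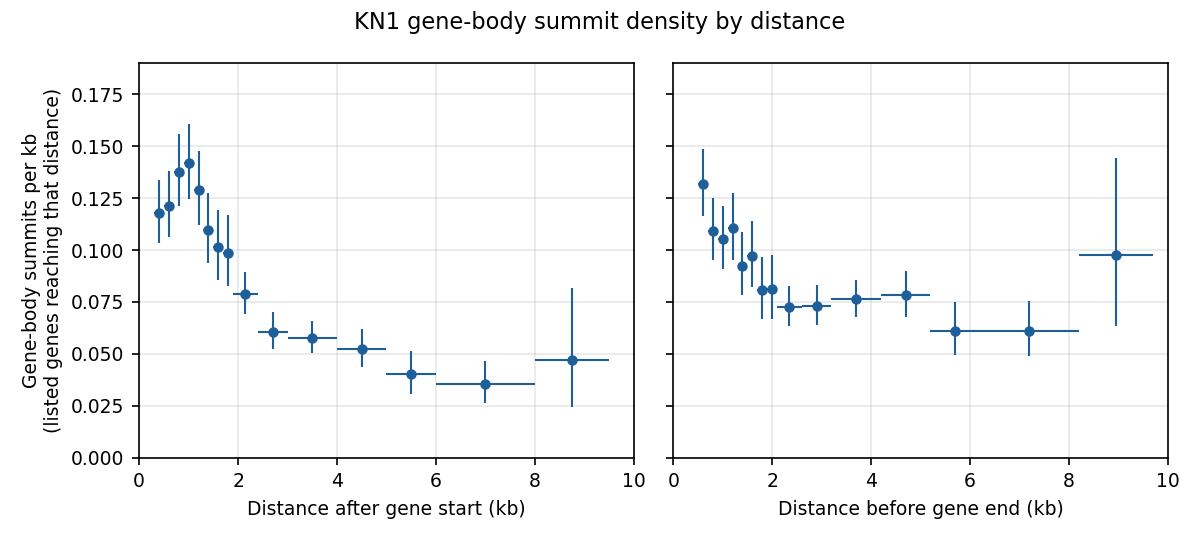
Gene-body summits per kb of listed gene, against distance in kb after the gene start (left) and before the gene end (right). Points are bins, horizontal bars their extent and vertical bars 95% Poisson intervals. The first 300 bp and the last 500 bp of genes are left out by the rule. Between these margins, the density on the left is highest at 0.142 near 1 kb, with overlapping intervals from 300 to 1300 bp. It falls to 0.0354 at 6 to 8 kb. On the right it is highest at 0.132 beside the margin.

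Long and short genes differ in density, so the same comparison was made within genes over 4 kb. In 3829 such listed genes, the stretch of 300 to 1500 bp after the start held 479 summits, or 0.104 per kb (0.0951 to 0.114). The stretch of 500 to 1500 bp before the end held 266, or 0.0695 per kb (0.0614 to 0.0783), and the interior between them 498, or 0.0439 per kb (0.0401 to 0.0479). In genes of 8 to 10 kb the stretch after the start still held 0.0948 per kb (0.0718 to 0.123), while the interior held 0.0252 (0.0198 to 0.0316) and the stretch before the end 0.0299 (0.0168 to 0.0494).

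Above 2 kb, the share of listed genes with a gene-body summit hardly changed with gene length. Only genes with a single-gene peak are listed, and a gene-body summit alone can list a gene. The shares are therefore not those of all genes of a given length. Of listed genes of 2 to 4 kb, 25.7% had at least 1 such summit (24.3 to 27.2%). The shares were 25.6% at 4 to 6 kb, 26.5% at 6 to 8 kb and 23.6% (19.9 to 27.5%) at 8 to 10 kb. Over the same classes the density per kb of body fell from 0.136 to 0.0789, 0.057 and 0.036. Genes under 2 kb had the same density as the next class, 0.136 per kb, but a body so short that 7.61% of them had a summit in it.

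Fold also varied along the gene. At 300 to 500 bp after the start the median fold was 6.31 (5.96 to 7.01), and 25.9% of 239 summits reached a fold of 10. At 900 to 1100 bp the median was 8.76 (7.71 to 9.82), and at 1300 to 1500 bp it was 9.47 (8.41 to 10.9), with 45.5% of 167 summits at 10 or more. From 3 to 5 kb it was 8.06, and at 6000 to 8000 bp 6.66 (5.96 to 7.71). The lowest medians thus lay beside the margin and at 6000 to 8000 bp, and between 900 and 2400 bp all medians were from 8.76 to 9.47. The 12 summits beyond 8000 bp had a median of 9.99, with an interval of 4.56 to 14.95.

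**Figure D3:**
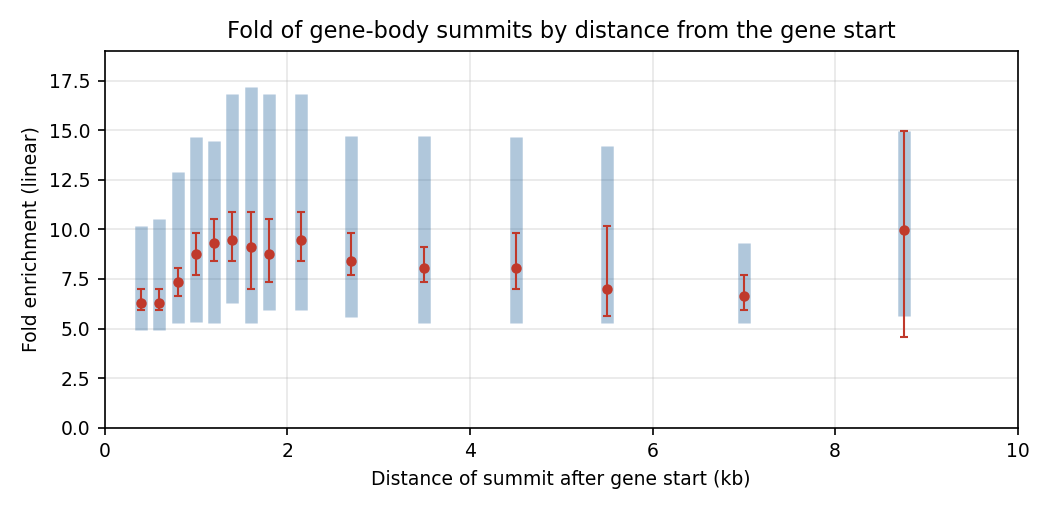
Fold enrichment of gene-body summits (linear axis) against distance after the gene start in kb. Red points are medians per bin with 95% intervals, and blue bars the quartiles. The median rises from 6.31 beside the margin to 9.47 at 1300 to 1500 bp and is 6.66 at 6 to 8 kb, while the last bin holds only 12 summits.

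Summits near the margin also differ in what their peaks cover. Of the 239 at 300 to 500 bp, 84.9% belonged to a peak that reached into the first 300 bp of the gene, and 15.1% to one that ran past the gene start. Only 29 of them (12.1%) were in a gene with a separate summit in the start region, taken here as 500 bp upstream to 300 bp inside. At 500 to 700 bp the share was 33.1%, and at 700 to 900 bp 51.2%. Each peak has 1 summit in the table, so a peak that covers both the gene start and the margin gives a single position. The part of this limit in the lower density and fold beside the margin was not tested.

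Strong gene-body summits were spread more evenly along the body than weak ones. Of the 620 summits with a fold above the upper quartile, 33.9% lay in the part nearest the start (30.2 to 37.8%), 33.4% in the middle and 32.7% in the part nearest the end. Of the 650 at or below the lower quartile, 42.0% lay nearest the start (38.2 to 45.9%) and 25.8% in the middle (22.5 to 29.4%). Among the 179 summits with a fold of at least 30, the middle part held 36.9% (29.8 to 44.4%).

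The strongest gene-body summit was in Zm00001d021851, a gene of 1701 bp on the minus strand of chromosome 7 (164522494 to 164524195, coordinates as in the deposited table, whose identifiers are of the Zm00001d series). Its peak, at 164522430 to 164523807, was 1378 bp wide and had its summit 788 bp after the gene start. The peak ran past the gene end at 164522494. The fold was 86.2, from a pileup of 245 reads, and the −log10 q-value 412. The same gene had a start-region summit with a fold of only 5.96.

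In Zm00001d025773 on chromosome 10 (129108410 to 129115766, plus strand), the peak at 129112188 to 129112914 had a fold of 76.8 and a summit 4090 bp after the start and 3266 bp before the end. This gene had no summit in its start region. Zm00001d002541 on chromosome 2 (15001466 to 15005577, minus strand) had a fold of 75.7 at 15001621 to 15002758, 3572 bp after the start. It also had a second gene-body summit with a fold of 21.4, 1866 bp after the start, and a start-region summit with a fold of 40.3. This made it a gene with strong summits at 3 places.

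Next came Zm00001d006759 on chromosome 2, with a fold of 72.9 at 435 bp after the start, and Zm00001d008704 on chromosome 8, with a fold of 70.1 at 2092 bp. The peak in Zm00001d006759 (216120403 to 216121999) was the widest of the first 12 by fold, at 1597 bp, and crossed the gene start at 216121521. Neither gene had a separate start-region summit.

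The other 7 of the first 12 had folds between 62.4 and 64.5. They lay in Zm00001d021684 (2845 bp after the start), Zm00001d013390 (843 bp), Zm00001d047750 (2572 bp), Zm00001d007180 (1710 bp), Zm00001d002705 (5779 bp), Zm00001d023918 (1663 bp) and Zm00001d048342 (1458 bp). All 12 had input at the floor. They fell on 6 chromosomes and in genes of 1701 to 7356 bp, with 2 in the part nearest the start, 5 in the middle and 5 nearest the end. In 8 of the 12 genes the start region had a summit too, with folds from 4.32 to 40.3, and in none of these 8 was it the higher one. The 12 were picked by their gene-body fold, so this order is in part built in.

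Among all genes with both kinds of summit, the start region was more often the stronger place. A start-region summit was present in 841 of the 2129 genes with a gene-body summit (39.5%, 37.4 to 41.6%). Taking the highest of each, the gene-body summit had the higher fold in 354 genes (42.1%, 38.7 to 45.5%), the start-region summit in 474, and both were equal in 13. The median folds were 8.76 in the body and 10.9 in the start region, and the median log2 ratio of body over start was -0.25 (-0.33 to -0.11). In the 675 genes with exactly 1 of each, the gene-body summit was the higher in 254 (37.6%) and the medians were 7.71 and 11.2. The body exceeded the start at least 2-fold in 137 of the 841 genes, and the start exceeded the body as much in 267.

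The folds of the summits of a gene were not related in rank. Across the 841 genes the Spearman rho between the folds was -0.00, with both summits read in the same libraries. Both reached a fold of 10 in 201 genes, the body alone in 158, the start region alone in 245 and neither in 237. The summits compared were a median of 1524 bp apart. Gene-body summits had a median fold of 8.06 both in genes with a start-region summit (1031 summits) and in genes without one (1499).

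**Figure D4:**
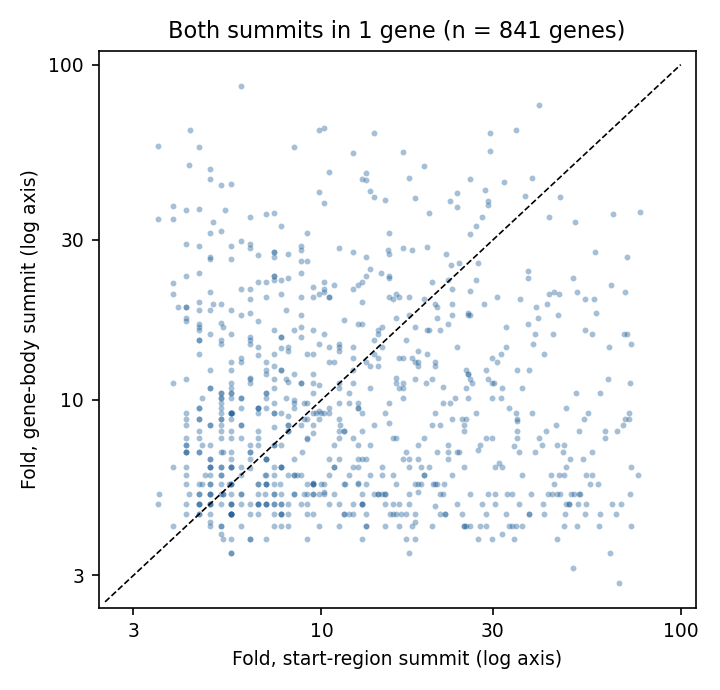
Fold of the highest gene-body summit against that of the highest start-region summit in the 841 genes with both (log axes). Each point is a gene and the dashed line marks equal folds. Points spread over the whole plane, 354 above the line and 474 below it, with no visible relation (rho -0.00).

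Start-region summits were somewhat more frequent in genes with a gene-body summit than in genes whose listed summits lay outside. The latter are 4360 listed genes over 800 bp with a summit more than 500 bp upstream or downstream and none in the body, and 1359 of them (31.2%, 29.8 to 32.6%) had a start-region summit. The gap was widest in genes of 2 to 4 kb, at 43.04% of 920 genes (39.8 to 46.3%) against 29.98% of 1331 (27.5 to 32.5%). In genes of 6 to 8 kb the shares were 34.2% (28.6 to 40.0%) and 33.1% (28.2 to 38.4%), and in genes of 8 to 10 kb 26.3% and 25.4%. The gap over all lengths depended on which peaks were counted: at q under 1e-10 the shares were 29.2% and 24.04%, and among peaks of 400 to 600 bp 10.9% and 10.2%. No test of these differences was made.

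Other parts of the same genes carried summits less often. A summit beyond 500 bp upstream was present in 482 of the 2129 genes (22.6%), one downstream in 376 (17.7%) and one in the last 500 bp in 214 (10.1%). In all, 1337 genes (62.8%) had some other listed summit. The 675 gene-body summits that were the only listed summit of their gene had a median fold of 7.36 (7.01 to 8.06). Few summits were near the start of a neighbouring gene in the table: 11 of 2530 summits (0.435%) lay within 1 kb of one and 46 (1.82%) within 2 kb. Peaks listed with more than 1 gene had been left out, and genes without a listed peak were not searched. These low counts are thus in part built in.

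Most genes had a single gene-body summit. There were 1787 genes with 1 (83.9%), 291 with 2, 43 with 3 and 8 with 4. Genes with more than 1 held 743 summits, with a median fold of 8.41 (8.06 to 9.11) against 7.71 (7.36 to 8.41) for lone ones, and they were longer, with a median of 4594 against 3683 bp. Adjacent summits in a gene were a median of 1126 bp apart (quartiles 760 and 1633 bp), and 18 of 401 gaps were under 500 bp. In genes with 2 summits, the stronger exceeded the weaker by a median of 1.91 times, and by over 2 times in 142 of 291 (48.8%). The one farther from the gene start was the stronger in 158 genes and the nearer one in 128. Their folds, with medians of 9.47 and 8.06, were again unrelated across genes (rho -0.01).

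The genes with 4 summits each had their own profile. Zm00001d028576 on chromosome 1 (39587411 to 39593209, plus strand) had the strongest of them: its folds were 5.61, 45.6, 27.0 and 23.5 at 1920, 3073, 3890 and 4701 bp after the start. Zm00001d043587 on chromosome 3 (204443266 to 204446887, minus strand), the shortest at 3621 bp, had folds of 32.2 at 989 bp and 32.95 at 3081 bp, with weak summits of 4.55 and 5.26 between them. Zm00001d037816 on chromosome 6, the longest at 8087 bp, had 32.6 at 561 bp and folds of 8.76, 5.61 and 4.21 beyond 4 kb. Of these genes, the first and the last had no separate start-region summit, and Zm00001d043587 had one with a fold of 27.0. In Zm00001d037816, on the minus strand, the peak with its summit at 561 bp (138747674 to 138749028) crossed the gene start at 138748540.

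In Zm00001d008604 on chromosome 8 (14284242 to 14291436, plus strand) the folds along the gene were 6.31, 10.9, 26.6 and 5.26, highest at 3489 bp after the start. Zm00001d016806 on chromosome 5 (176723531 to 176729940, plus strand) had 12.97, 9.82, 21.03 and 4.91, highest at 3636 bp. In both, the strongest summit lay near the middle of the gene and the weakest was the one farthest from the start.

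**Figure D5:**
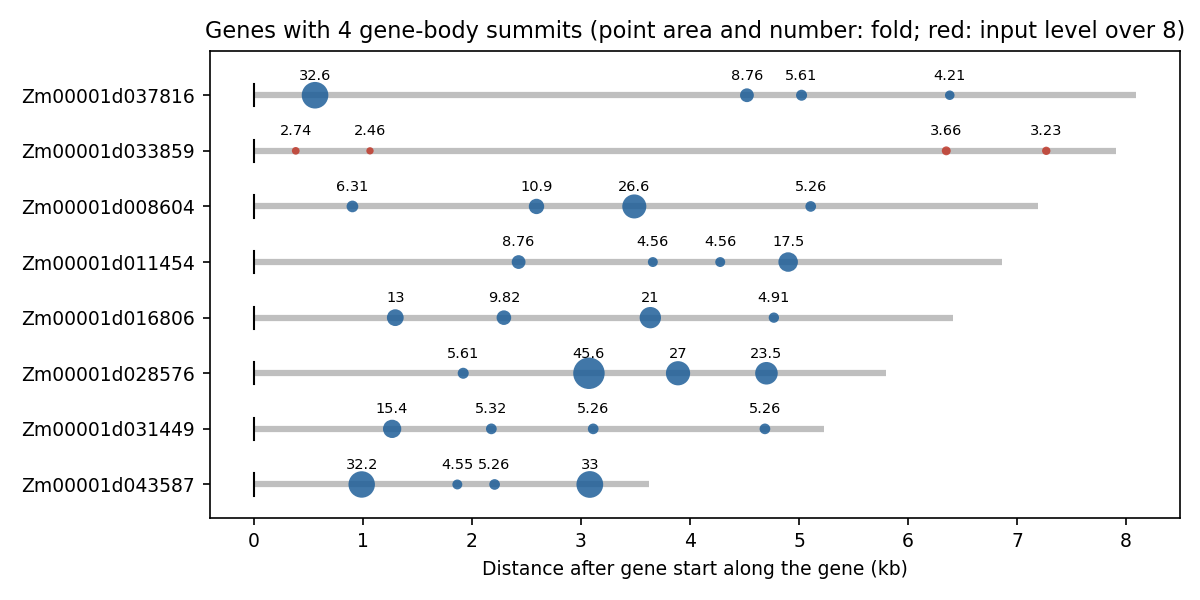
The 8 genes with 4 gene-body summits, drawn from the gene start (left tick) to the gene end (grey bar) in kb. Points are summits, with their fold printed above and as point area, and red points have an input level over 8. The highest fold is 45.6 in Zm00001d028576, and all 4 summits of Zm00001d033859 are red with folds of 2.46 to 3.66. Zm00001d011454 and Zm00001d031449 are shown because the plot holds every gene with 4 summits.

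The 4 summits of Zm00001d033859 on chromosome 1 (276073335 to 276081242, minus strand) stood apart from all others in the gene bodies. Their input levels were 83.4, 26.6, 51.8 and 48.2 at 384, 1065, 6350 and 7267 bp after the gene start, whereas the next highest input level of any gene-body summit was 5.53, in Zm00001d032391. The ChIP pileups were 230, 67, 192 and 158 reads, and the peaks were 240 to 335 bp wide. Their folds of 2.74, 2.46, 3.66 and 3.23 thus combine a high ChIP signal with a high input, and the interior from 1.1 to 6.3 kb held no listed summit. The source of the raised input was not tested. Without this gene the median fold of gene-body summits was still 8.06, and 38.8% still reached a fold of 10.

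Raised input was otherwise rare and slight. It was above the floor at 148 gene-body summits (5.85%, 4.97 to 6.84%), against 7.91% of all chromosomal peaks and 11.7% (10.4 to 13.02%) of summits in the first 300 bp. At 141 of the 148 the level was at most 3.02, and the median was 2.01. Fold at these 148 had a median of 8.42 (6.64 to 10.7), close to the 8.06 of summits with input at the floor.

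The widest gene-body peak, of 2671 bp, covered the whole of Zm00001d027355 on chromosome 1 (3573479 to 3575207, plus strand), from 3572705 to 3575375, with a fold of 20.3. A peak of 2656 bp in Zm00001d041471 on chromosome 3 had a fold of 59.2, its summit 8521 bp after the start and 1154 bp before the end. This peak reached 122364856, past the gene end at 122364344. In Zm00001d032608 on chromosome 1 a peak of 2190 bp had a fold of 45.9.

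Gene-body summits took a like share of the peaks on every chromosome. The share ran from 10.8% on chromosome 9 (9.31 to 12.4%) to 13.6% on chromosome 4 (12.05 to 15.3%), and the median fold from 7.71 to 8.76. It was 12.1% in the first and last of 10 equal segments of the chromosomes (11.4 to 12.8%) and 13.5% in the fourth to the sixth (12.1 to 14.98%), with median folds of 7.71 and 8.06. By strand the genes were less even: 1350 summits (53.4%, 51.4 to 55.3%) lay in plus-strand genes, against 50.8% of the other single-gene peaks. Counted by gene, the shares were 52.5% (50.4 to 54.7%) and 50.8% (49.9 to 51.8%), with overlapping intervals. By chromosome the share ran from 45.1% on chromosome 8 (38.4 to 51.9%) to 60.7% on chromosome 6 (53.6 to 67.5%), where all single-gene peaks had 48.3% and 53.4%.

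Each limit of the rule had peaks close by on both sides. Just inside the limit at the gene start, summits at 302 bp in Zm00001d034072 and 306 bp in Zm00001d022395 had folds of 10.5 and 9.82. Just outside it, summits at 300 bp in Zm00001d042851 and Zm00001d051980 had 8.76 and 8.41. At the gene end, summits at 502 bp in Zm00001d018262 and Zm00001d009907 had folds of 5.96 and 10.9, and those at 500 bp in Zm00001d007777 and 499 bp in Zm00001d046346 had 7.01 and 9.63. The longest genes kept were Zm00001d005856 at 9998 bp, with a fold of 4.91, and Zm00001d027995 at 9963 bp, with 7.01. The shortest gene left out was Zm00001d045836 at 10040 bp, with folds of 14.4 and 5.61.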

How the data were processed

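Libraries were processed with fastp 0.21.0, Bowtie2 2.4.2, SAMtools 1.11 and MACS2, per the submitters' processing notes. The genome build is not given in the sources used here. The deposited table is headerless, with a row for each pair of peak and gene, and comes from 1 ChIP library called against 1 input. The authors' fold is a ratio at the summit, and their −log10 p-value and q-value stand beside it. The deposited score follows the q-value. The authors also deposited the summit offset and the distance to the gene in bp. Peak names carry the tag rmdup and a number read here as the genome size given to the caller, 700 Mb, which sets the input floor.

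Peak coordinates were made 1-based. ChIP pileup and input level were solved from the authors' fold and p-value under the MACS2 formulas (pileup + 1) / (input + 1) and a Poisson tail, with a relative error of at most 4.9e-06 over 21168 peaks. With the shortest peak, 229 bp, taken as the fragment length, the floor corresponds to about 5.66 M ChIP and 11.3 M input reads. Total counts per library were not used here.

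Shares have Clopper-Pearson 95% intervals, medians order-statistic intervals and densities Poisson intervals, and they treat neighbouring peaks as independent. No test was made. Positions and the solver were tested on simulated data. The members, comparisons and named genes (the 12 highest folds, 5 of the 8 genes tied at 4 summits, taken by highest fold, the 5 highest inputs, the 3 widest peaks and those beside each limit) were chosen with earlier results of these data known. Peaks listed with more than 1 gene (475) were left out. Python 3.11.15 was used with pandas 2.3.3, numpy 2.4.6, matplotlib 3.10.9 and scipy 1.17.1.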

Additional observations from a re-analysis of the deposited data

Results flagged for a closer look

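Peaks listed with more than 1 gene enter no comparison above, yet 67 of them had a summit in the body of a gene of at most 10 kb by the same distances. Their median fold over input was 7.64 (95% interval 6.31 to 9.82), with a range of 3.51 to 72.9, and 24 of the 67 reached a fold of 10. That fold was reached by 38.8% of the 2530 gene-body summits and 47.3% of all chromosomal peaks.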

How the results depend on the processing

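Of the 45 values recomputed under other settings, 20 stayed within the 95% interval of the reported value and 25 moved outside it, and the cause of these moves was not tested except where the setting acts by its own construction. With the peak midpoint in place of the summit, all results recomputed stayed within their intervals. At q under 1e-10 the share of single-gene peaks in gene bodies was 10.9%, the median fold 12.3, the share at a fold of 10 or more 62.9%, the share nearest the gene start 36.6%, the share of genes with a start-region summit 29.2% and the median width 563 bp; the filter removes weak peaks by construction. With the whole peak inside the gene body, the share of peaks was 9.28%, the share at a fold of 10 36.1%, the share with a start-region summit 42.3% and the width 416.5 bp. With margins of 500 and 1000 bp, the share of peaks was 8.35%, the share nearest the start 41.8% and that with a start-region summit 42.4%. Without peaks of raised input, 36.1% of genes had a start-region summit. With only the highest gene-body summit of each gene, the share of peaks was 10.5%, the median fold 8.76, the share at a fold of 10 42.5% and the width 454 bp. Peaks at other positions were all kept in this setting, which lowers the share of peaks by construction. Among peaks of 400 to 600 bp, the share of peaks was 11.5%, the median fold 9.82, the share at a fold of 10 47.5%, the share nearest the start 41.04% and that with a start-region summit 10.9%, since this width must then hold for both peaks. The excess of start-region summits in genes with a gene-body summit over genes with summits outside only, 8.33 percentage points, was recomputed under 4 settings chosen after seeing the data: it was 5.11 at q under 1e-10 and 0.711 among peaks of 400 to 600 bp, and stayed within its interval with midpoints (7.83) and without raised input (8.10). No paired analysis was possible because each group has 1 library. Depth limits the weakest calls, which rest on a pileup of 8 reads.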
